A study of Mus musculus with 9 samples.

Results

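Proteasome genes were followed in Reissner's membrane, the thin cellular partition of the cochlea that keeps endolymph apart from perilymph. Members were taken from the array's probe set annotation as every gene whose symbol began with Psma, Psmb, Psmc, Psmd, Psme or Psmg and a number, which gave 48 of the 18193 genes that had a probe set of their own, covered by 99 probe sets. Each gene was represented by the probe set with the highest mean signal over the 9 arrays. Of the 48 symbols, 46 named proteasome subunits, activators or assembly factors, while Psmc3ip and Psme3ip1 name proteins that only interact with one. Psme2 had no probe set of its own, because its probe set is annotated to Psme2 and its related copy Psme2b, so it was described apart as Psme2/Psme2b and left out of the counts.

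The proteasome is a barrel-shaped protease that degrades proteins tagged with ubiquitin. Its core is built of an outer pair of alpha rings and an inner pair of beta rings, 3 of whose subunits (Psmb5, Psmb6 and Psmb7) carry the cutting sites, and a regulatory particle of a base and a lid binds, unfolds and feeds in the substrate. In cells exposed to interferon, Psmb8, Psmb9 and Psmb10 can take the places of Psmb5, Psmb6 and Psmb7 in new cores, and the activator made of Psme1 and Psme2 can cap the core. This form, the immunoproteasome, is known for making peptides for presentation on MHC class I molecules, while glucocorticoids are known for lowering the transcription of many inflammatory genes.

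Membranes of adult mice were dissected free-hand and pooled, and RNA was extracted at once (fresh), after 24 h as explants (incubated), or after 24 h as explants with dexamethasone, a synthetic glucocorticoid, at 100 nM. The dose reads mM on the labels of the B and C arrays of the treated group. Each of the 3 groups had 3 Affymetrix arrays lettered A to C, and the design text gives 3 chips for each biological sample, so p-values measure only how far arrays of a group scatter, a spread that may be technical. The sources used here give neither the strain nor how many membranes a pool held. RNA passed through 2 rounds of in vitro transcription before hybridization.

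Every array had a trimmed mean signal of 500, and 36.0% to 39.4% of probe sets reached a signal of 200, the working floor used here because no detection calls were used. Arrays of one group correlated at r = 0.984 to 0.989 over log2 signals of all probe sets, and no pair held identical values. The number of arrays limits the precision. Signals were tested as log2(signal + 32), so each log2 difference understates the change of a dim gene. Marker genes of the membrane's epithelium were present: of 9 listed, 8 were matched on the array, and all 8 were tested. Markers of adjoining fibrocytes, nerve and stria were strong in fresh arrays, with a summed signal over 11 genes of 69946 to 71630, against 1938 to 2014 in incubated and 2039 to 2211 in dexamethasone arrays. Of 13 listed, 11 were matched on the array and tested. All 11 fell on incubation, against 40.7% of all genes tested. Among them were Coch (means of 15914 fresh and 151.6 incubated), Otos (13242 and 159.5), Car3 (-4.60 ± 0.081) and Slc4a11 (-3.93 ± 0.075). Of the mesothelial markers, Upk3b and Wt1 stayed under 200 on every array, while Msln rose on incubation, with means of 45.1 fresh, 1203 incubated and 941.0 with dexamethasone. The fibroblast markers Lum (means of 1835 and 62.2), Thy1 (1018 and 110.9) and Dcn (-1.45 ± 0.058) fell on incubation.

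The first comparison asked how proteasome transcripts changed when the membrane was kept for 24 h outside the ear. Of 46 proteasome genes, 44 passed the filter on low signals (200 on at least 3 arrays), and 43 of these rose in limma at an adjusted p of 0.05. None fell (0, also 0 at an unadjusted p of 0.05), and Psmb9 was the 1 gene not called. The median change was 0.91 on the log2 scale, against -0.038 over all 10228 genes tested, of which 36.1% rose and 40.7% fell. A rise of at least 0.5 was called for 42 of the 44, against 21% of all genes. Psma8, an alpha subunit of the testis, and Psmb11, a catalytic subunit of thymic cortical epithelium, were under 200 on every array and were not measured above the floor. In RNA from a whole tissue, more cells of a type and more RNA per cell cannot be told apart.

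**Figure D1:**
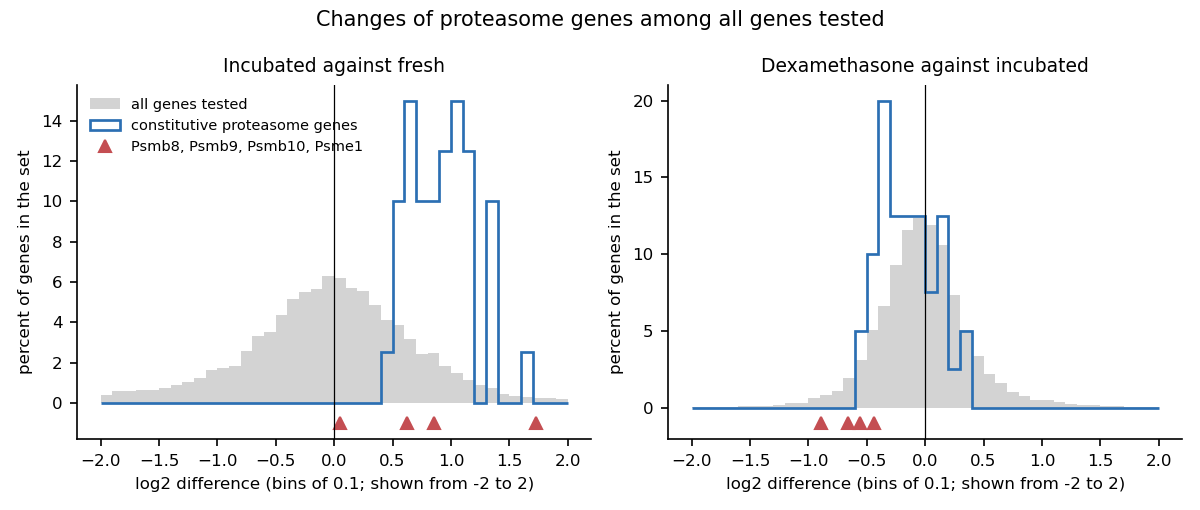
Distribution of log2 differences (horizontal axis, bins of 0.1) as a percent of each set (vertical axis), for all 10228 genes tested (grey), the 40 constitutive proteasome genes tested (blue outline) and 4 genes of the immunoproteasome (red triangles, drawn under the axis). On incubation the constitutive genes lie at 0.49 or higher, while with dexamethasone they range from -0.56 to 0.33 and the 4 red triangles lie between -0.89 and -0.44.

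The core rose as a whole. All 7 alpha ring genes were higher, by a median of 0.89, from 0.53 ± 0.040 for Psma6 to 1.13 ± 0.052 for Psma7. That order depended on the probe set chosen. Other tested probe sets gave 1.18 ± 0.048 and 0.16 ± 0.20 for Psma6 and 1.39 ± 0.075 for Psma7. Psma7 read 1977, 1927 and 1924 on the fresh arrays and 4115, 4567 and 4174 on the incubated ones, so the groups did not overlap. The alpha ring forms the gate of the barrel. All 7 constitutive beta ring genes were also higher, by a median of 0.93, from 0.72 ± 0.052 for Psmb6 to 1.35 ± 0.057 for Psmb7. Among the 3 that carry the cutting sites, Psmb5, the chymotrypsin-like subunit, read 3821, 3947 and 4144 fresh and 8818, 8080.1 and 8216 incubated, a rise of 1.07 ± 0.049 (limma adjusted p = 7.7e-10). Psmb6, the caspase-like subunit, read 5260.2, 5373 and 5376 fresh and 9451, 8376 and 8692 incubated. Psmb7, the trypsin-like subunit, read 1614, 1464 and 1556 fresh and 4176, 4093 and 3691 incubated. In each of the 3 genes the lowest incubated array stood above the highest fresh array. How often groups stood apart in this way over all genes is not given here, for these or later genes.

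The regulatory particle moved the same way. All 6 base ATPases, the motor that unfolds substrates, rose, from 0.69 ± 0.078 for Psmc4 to 1.13 ± 0.052 for Psmc6, with a median of 0.86. Their order too depended on the probe set. Other tested probe sets gave 1.10 ± 0.052 for Psmc4, and 0.47 ± 0.082 and 0.91 ± 0.17 for Psmc6. The 3 other base subunits rose too, the scaffold subunits Psmd1 (1.07 ± 0.048) and Psmd2 (1.11 ± 0.054) and the ubiquitin receptor Psmd4 (0.59 ± 0.12). The chosen probe set of Psmd4 scattered, with 2630.5, 3799.5 and 3677 on the fresh arrays. A second tested one rose by 0.96 ± 0.074, nearer to Psmd1 and Psmd2. Differences between these genes were not tested. All 8 lid genes rose, by a median of 1.06. The lid held both ends of the constitutive range. Psmd8, a lid subunit, read 889.5, 912.0 and 945.6 fresh and 3103, 2962 and 2922 incubated, a rise of 1.68 ± 0.055 or 3.19-fold (limma adjusted p = 4e-11). Psmd14, the deubiquitinase that removes the ubiquitin chain, rose by 0.49 ± 0.054, from 7314, 8091 and 8012 to 10487, 10959.6 and 11458.

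The 7 assembly chaperones, which build the core (Psmg1 to Psmg4) or the base (Psmd5, Psmd9 and Psmd10) without staying in it, all rose, by a median of 0.69, from 0.51 ± 0.077 for Psmg2 to 1.35 ± 0.073 for Psmg4. Psmg4 read 380.8, 390.6 and 386.6 fresh and 1114, 969.5 and 1014 incubated. Of the activators outside the immunoproteasome, both nuclear, Psme3 rose by 1.37 ± 0.064 and Psme4 by 0.68 ± 0.060. Psme3 read 427.6, 452.2 and 465.7 fresh and 1276, 1159.8 and 1203 incubated, with no overlap. Of the symbols that name no proteasome protein, Psmc3ip rose by 0.59 ± 0.11, and Psme3ip1 differed by -0.12 ± 0.068 (limma adjusted p = 0.115), a sign that turned to 0.22 with scaling on hybridization controls.

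**Figure D2:**
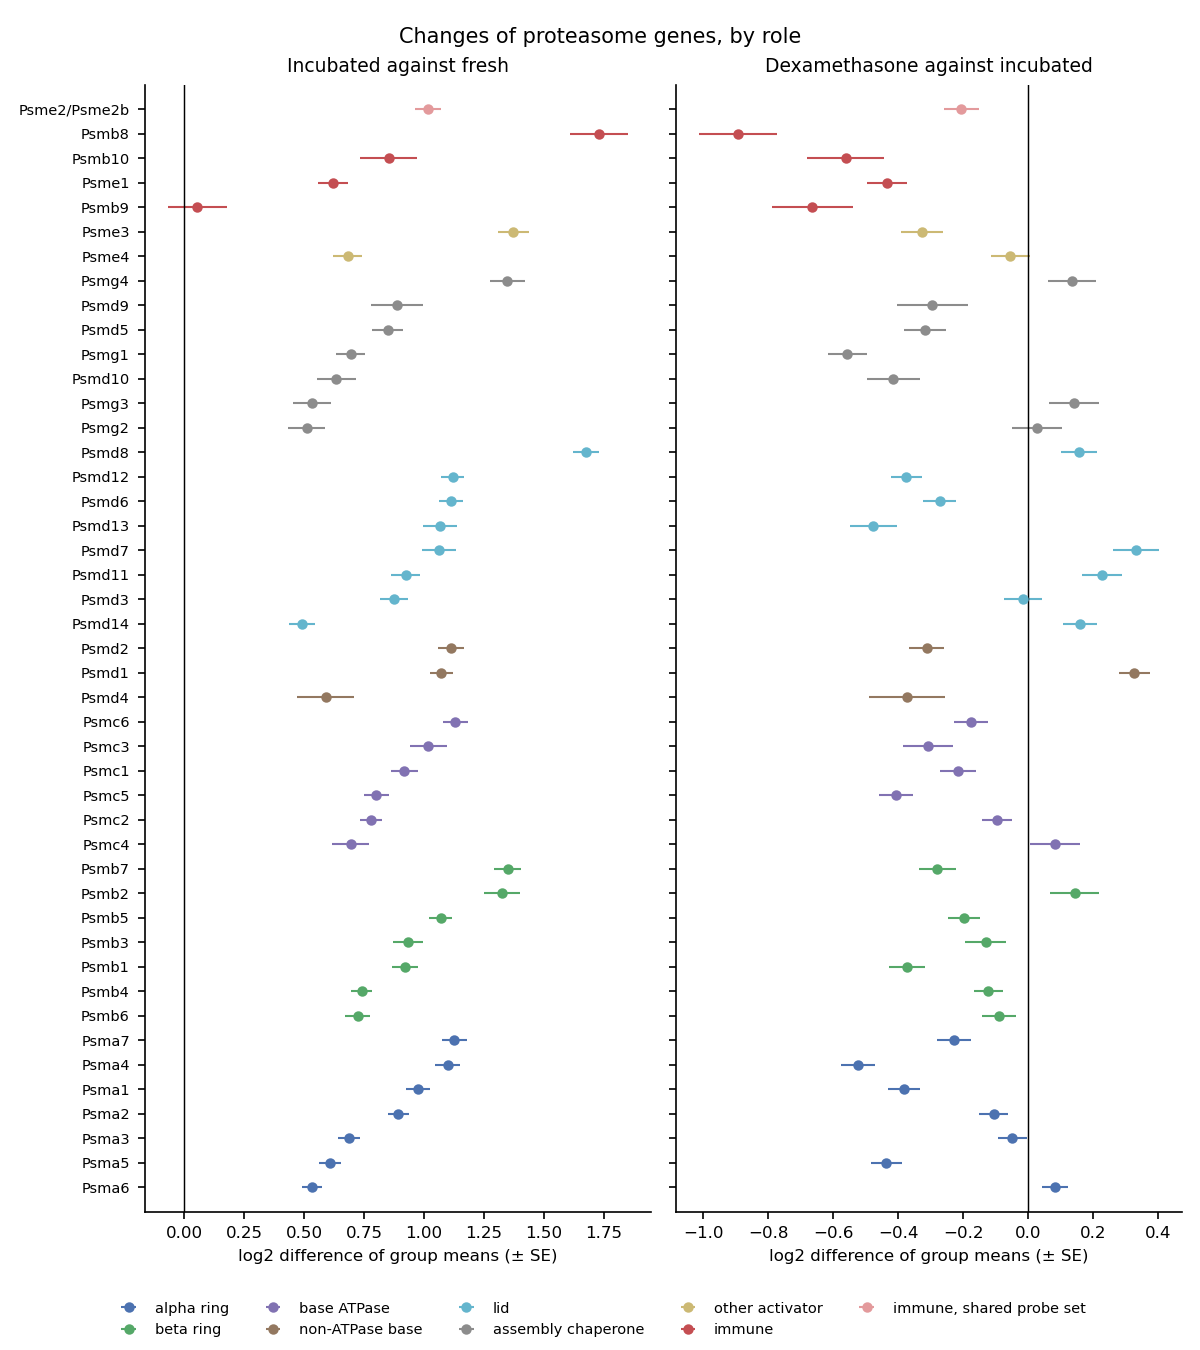
Log2 difference of group means with its SE (horizontal axes) for each tested proteasome gene (vertical axis, coloured by role), incubated against fresh on the left and dexamethasone against incubated on the right, 3 arrays a group. On the left every gene but Psmb9 lies clear of 0, and on the right the genes lie on both sides of 0 with Psmb8, Psmb9 and Psmb10 lowest.

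The genes of the immunoproteasome did not rise alike. Psmb8, the immune counterpart of Psmb5, read 168.5, 168.8 and 236.5 on fresh arrays and 694.8, 659.0 and 753.8 on incubated ones. It rose by 1.73 ± 0.12 (3.32-fold on this scale, limma adjusted p = 3.5e-08), ranking 1 of the 44 genes, although only fresh array C reached the floor of 200. Psmb9, the counterpart of Psmb6, read 216.2, 222.7 and 219.6 fresh and 194.8, 256.7 and 239.7 incubated. These groups overlapped, and the difference of 0.054 ± 0.12 ranked 44 of 44 (limma adjusted p = 0.708). It passed the test as a rise of 0.30 after quantile normalization and of 0.36 with scaling on hybridization controls.

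Psmb10, the counterpart of Psmb7, read 439.9, 571.3 and 624.5 fresh and 1036, 942.5 and 1024 incubated, a rise of 0.85 ± 0.12 (limma adjusted p = 2.7e-05). Psme1, which forms the interferon-responsive activator together with Psme2, read 1928, 2096 and 2225 fresh and 3321, 3051 and 3280.3 incubated, a rise of 0.62 ± 0.062 (limma adjusted p = 1.2e-06). The shared probe set of Psme2/Psme2b read 1784, 1856 and 1822 fresh and 3943, 3528 and 3690.1 incubated, a rise of 1.02 ± 0.054. In these 3 probe sets the incubated arrays all stood above the fresh ones, a separation not set against its share over all genes.

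Each immune beta gene was then set against the subunit it replaces, and each gene of the interferon-responsive activator against Psme3, as the within-array difference of their log2 signals, for 5 pairs in 3 comparisons. With 3 arrays against 3, the two-sided exact permutation test can give no p below 0.10, so none of the 15 tests could pass 0.05. The smallest p found after adjustment over these tests was 0.115. On incubation, Psmb8 rose by 0.66 ± 0.13 more than Psmb5, and the arrays did not overlap (exact p = 0.10). That gap was 0.91 after quantile normalization and 0.41 with a pseudocount of 100. The other pairs went the opposite way, again without overlap (exact p = 0.10 each). Psmb9 moved by -0.67 ± 0.16 relative to Psmb6, or by -0.33 after quantile normalization. Psmb10 moved by -0.50 ± 0.19 relative to Psmb7, Psme1 by -0.75 ± 0.032 relative to Psme3, and Psme2/Psme2b by -0.36 ± 0.027 relative to Psme3.

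**Figure D3:**
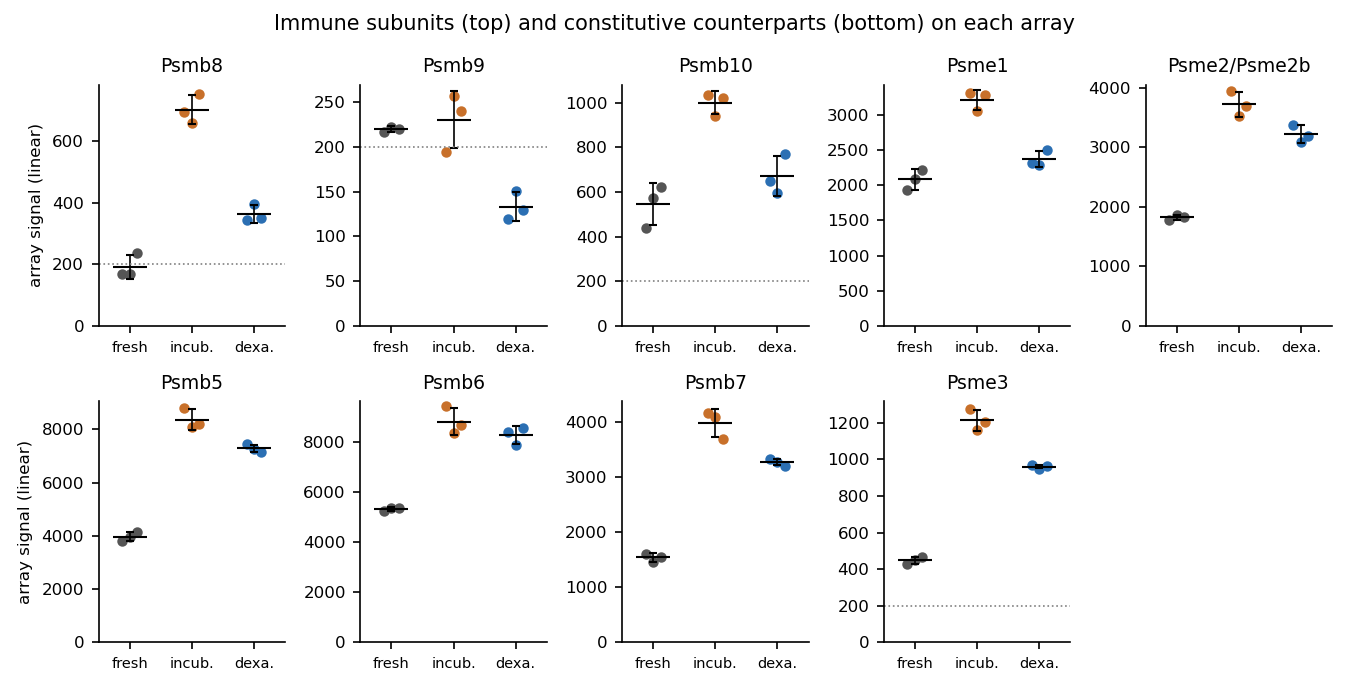
Array signal on a linear scale from 0 (vertical axes) in the fresh, incubated and dexamethasone groups, with 1 point per array, the group mean as a wide bar and the SD as whiskers; the dotted line marks the floor of 200 where it falls within a panel's range and the gene is dim. Psmb8 is highest in the incubated group and stays above fresh with dexamethasone, while Psmb9 is alike in fresh and incubated arrays and under 200 on all 3 dexamethasone arrays.

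The promoters of Psmb8, Psmb9, Psme1 and Psmb5 are shown because these genes gave the highest and the lowest change on incubation, the activator subunit, and the constitutive subunit that Psmb8 replaces. Each sequence runs from 150 bases before the start of the gene to 30 bases after it, from RefSeq on GRCm38.p6, at chr17:34198045-34198224 (+ strand) for Psmb8, chr17:34187301-34187480 (- strand) for Psmb9, chr14:55578344-55578523 (+ strand) for Psme1 and chr14:54617966-54618145 (- strand) for Psmb5. Capitals mark a match to one of the motifs described after them.
Psmb8: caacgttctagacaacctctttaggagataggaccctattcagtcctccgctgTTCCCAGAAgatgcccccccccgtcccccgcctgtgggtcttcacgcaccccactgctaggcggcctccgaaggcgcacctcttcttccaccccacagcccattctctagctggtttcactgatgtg
Psmb9: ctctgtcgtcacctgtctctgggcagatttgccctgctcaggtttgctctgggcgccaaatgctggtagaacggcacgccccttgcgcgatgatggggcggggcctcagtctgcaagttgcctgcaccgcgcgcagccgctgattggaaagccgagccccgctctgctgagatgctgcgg
Psme1: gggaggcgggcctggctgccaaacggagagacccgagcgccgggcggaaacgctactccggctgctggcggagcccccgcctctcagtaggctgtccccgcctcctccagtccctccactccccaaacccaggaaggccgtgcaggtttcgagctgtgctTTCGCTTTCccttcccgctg
Psmb5: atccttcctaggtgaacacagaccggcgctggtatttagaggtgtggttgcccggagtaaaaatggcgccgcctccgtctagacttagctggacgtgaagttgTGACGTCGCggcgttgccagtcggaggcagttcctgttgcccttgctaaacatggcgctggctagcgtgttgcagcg

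In that assembly Psmb9, Tap1, Psmb8 and Tap2 follow one another on chromosome 17, within the MHC, and Psme1 and Psme2 lie on chromosome 14 with 1 gene, Emc9, between them. Windows of 300 bases, 250 before and 50 after the start, were matched for 39 of 47 proteasome genes, Psme2 included, and searched on both strands. Motifs may overlap one another. The capitals in Psmb8 are TTCNNNGAA, a STAT site that reads the same on both strands, 97 bases before the start. It was found in 1 of 5 immune genes, in 2 of 34 constitutive genes (Psmd2 and Psmg1) and in 9.55% of 27025 genes. The capitals in Psme1 are GAAANNGAA, the interferon-stimulated response element core, on the opposite strand. It was found in 1 of 5 immune genes, 6 of 34 constitutive genes and 9.76% of all genes. The capitals in Psmb5 are TGACNNNGC, the antioxidant response element core bound by NRF factors, found in 6 of 34 constitutive genes (Psmb5, Psmb6, Psmc6, Psmd12, Psmd9 and Psme4), 0 of 5 immune genes and 14.0% of all. The glucocorticoid response element core ACANNNTGT was in 0 of the 34 and 0 of the 5, against 7.90% of all, and the NF-kB site GGGANTTTC in Psma6 alone of the 39, against 1.29% of all. None of the 5 motifs was found in the Psmb9 window. These shares are descriptions of letters in a window.

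The second comparison asked how dexamethasone changed these transcripts in tissue kept for the same 24 h. Dexamethasone lowered 26 of the 44 proteasome genes and raised 5 in limma, with 13 not called, and the median change was -0.22 (range -0.89 to 0.33). Over all 10228 genes the median was -0.030, with 28.7% lower and 22.3% higher. The 4 immune genes all fell, by a median of -0.61, while 22 of the 40 constitutive genes fell and 5 rose, with a median of -0.19. The split of signs depended on scaling. Scaling on hybridization controls shifted the median of all probe sets to -0.39, and then 42 genes fell and 0 rose in limma (0 also at an unadjusted p of 0.05), with a members' median of -0.25 relative to that shift. The same scaling shifted the median on incubation to 0.28, and there the members' median relative to it was 0.97.

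Psmb8, Psmb9 and Psmb10 ranked 1, 2 and 3 from the lowest change. Psmb8 read 344.5, 396.3 and 349.4 on dexamethasone arrays, below each incubated array and above each fresh array, a change of -0.89 ± 0.12 against incubated (1.86-fold lower, limma adjusted p = 5.5e-05). Psmb9 read 118.9, 151.0 and 129.8, under the floor of 200 and under every incubated and fresh array. Its change was -0.66 ± 0.12 (limma adjusted p = 0.000732), and since all 3 dexamethasone arrays were under the floor the fall is given as at least 1.15-fold, the incubated mean of 230.4 over 200. Psmb10 read 649.2, 594.5 and 768.9, all under the incubated arrays, a change of -0.56 ± 0.12 (limma adjusted p = 0.00173).

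Psme1 read 2323, 2289 and 2502 and ranked 8 from the lowest, with a change of -0.44 ± 0.062 (limma adjusted p = 9.3e-05). Psme2/Psme2b read 3379, 3094 and 3189 and changed by -0.21 ± 0.054 (limma adjusted p = 0.00683). Both stood between the fresh and the incubated arrays without overlap with either. Values of the counterparts follow. Psmb5 read 7437, 7262 and 7166, a change of -0.20 ± 0.049. Psmb6 read 8421, 7893 and 8576, overlapped the incubated arrays and did not pass the test (-0.090 ± 0.052, limma adjusted p = 0.166). Psmb7 read 3329, 3281 and 3213, a change of -0.28 ± 0.057, and Psme3 read 967.6, 949.0 and 965.1, a change of -0.33 ± 0.064 that was not called with the mean of all its probe sets (-0.062).

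As pairs within each array, Psmb8 changed by -0.70 ± 0.091 relative to Psmb5, without overlap (exact permutation p = 0.10, the smallest possible). For Psmb9 no gap to Psmb6 is given, because all 3 dexamethasone arrays of Psmb9 were under the floor. Psmb10 changed by -0.28 ± 0.14 relative to Psmb7, with overlapping arrays (exact p = 0.20). Psme1 changed by -0.11 ± 0.041 and Psme2/Psme2b by 0.12 ± 0.031 relative to Psme3, without overlap and in opposite directions (exact p = 0.10 each).

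Within the constitutive genes dexamethasone went with changes in both directions. No core gene rose in limma (0, also 0 at an unadjusted p of 0.05). In the rings 4 of 7 alpha ring and 4 of 7 beta ring genes fell, by medians of -0.23 and -0.13 for the whole rings, and the others did not pass the test. Psmb4 (-0.12, limma adjusted p = 0.0351) lost its call with no filter, eBayes without the trend, and both compared groups fitted alone. That call was also lost without fresh array B, incubated array A or C, or dexamethasone array B or C. The lowest of each ring were Psma4 (-0.52 ± 0.052), which read 4165, 4333 and 3987 incubated and 2861, 2758 and 3037 with dexamethasone, and Psmb1 (-0.37 ± 0.055). The highest, Psma6 (0.084 ± 0.040) and Psmb2 (0.14 ± 0.076), did not pass the test, and both turned lower, to -0.34 and -0.27, with scaling on hybridization controls. Of the base ATPases 4 of 6 fell, from Psmc5 (-0.41 ± 0.052) upward. Psmc6 (-0.18) lost its call without dexamethasone array A (-0.14) and with the mean of all its tested probe sets (-0.11). Psmc4 stood highest (0.083 ± 0.078, limma adjusted p = 0.39, and -0.34 with that scaling). Another probe set of Psma6 (-0.13) and another of Psmc4 (-0.16) were called lower.

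All 5 genes that rose encode subunits of the regulatory particle, 4 of the 8 in the lid and 1 in the base. Psmd7, a lid subunit, read 1389, 1329 and 1467 incubated and 1709, 1767 and 1814 with dexamethasone, a change of 0.33 ± 0.071 (limma adjusted p = 0.00177). Psmd1, the base scaffold, read 6383, 5972 and 6329.7 incubated and 7959, 7424 and 8074 with dexamethasone, a change of 0.33 ± 0.048 (limma adjusted p = 0.000118). In both genes every dexamethasone array stood above every incubated array. The lid subunits Psmd11 (0.23 ± 0.062), Psmd14 (0.16 ± 0.054) and Psmd8 (0.16 ± 0.055) also rose. With scaling on hybridization controls the sign of all 5 turned, to -0.082 for Psmd7, -0.094 for Psmd1, -0.19 for Psmd11, -0.26 for Psmd14 and -0.26 for Psmd8. Of these, Psmd7 and Psmd1 were not called (limma adjusted p = 0.386 and 0.133). Relative to the shift of all probe sets under that scaling, Psmd7 stood at 0.31, Psmd1 at 0.30, Psmd11 at 0.20, Psmd14 at 0.13 and Psmd8 at 0.13. Psmd14 was not called without incubated array A (0.13), dexamethasone array A (0.13) or dexamethasone array C (0.16). Psmd8 was not called without incubated array B (0.15), incubated array C (0.14), dexamethasone array A (0.12) or dexamethasone array C (0.15). With either dexamethasone array left out 3 genes rose. Quantile normalization lost the calls of Psmd11 (0.11) and Psmd14 (0.098), and no filter and eBayes without the trend each lost those of Psmd8 and Psmd14. Of the other lid genes 3 fell, lowest Psmd13 (-0.48 ± 0.072), and the ubiquitin receptor Psmd4 in the base fell by 0.37 on the log2 scale, a call lost without incubated array A (-0.30) or dexamethasone array B (-0.34).

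Of the 7 assembly chaperones 4 fell and 0 rose in limma (0 also at an unadjusted p of 0.05). Among the 4, Psmd9 (-0.30, limma adjusted p = 0.0378) lost its call with no filter and with eBayes without the trend. The same held without incubated array B or C, or dexamethasone array A or B. Psmg1, which pairs with Psmg2 to guide alpha ring assembly, read 1364, 1314 and 1303 incubated and 894.1, 908.0 and 873.1 with dexamethasone, a change of -0.56 ± 0.060, ranking 4 from the lowest of the 44 genes. Its partner Psmg2 changed by 0.027 ± 0.077 (limma adjusted p = 0.785) and Psmg3 by 0.14 ± 0.077 (limma adjusted p = 0.142), with signs that turned to -0.38 and -0.27 under hybridization-control scaling. Psmc3ip fell by 0.53 on the log2 scale, and Psme4 changed by -0.056 ± 0.060 without passing the test.

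**Figure D4:**
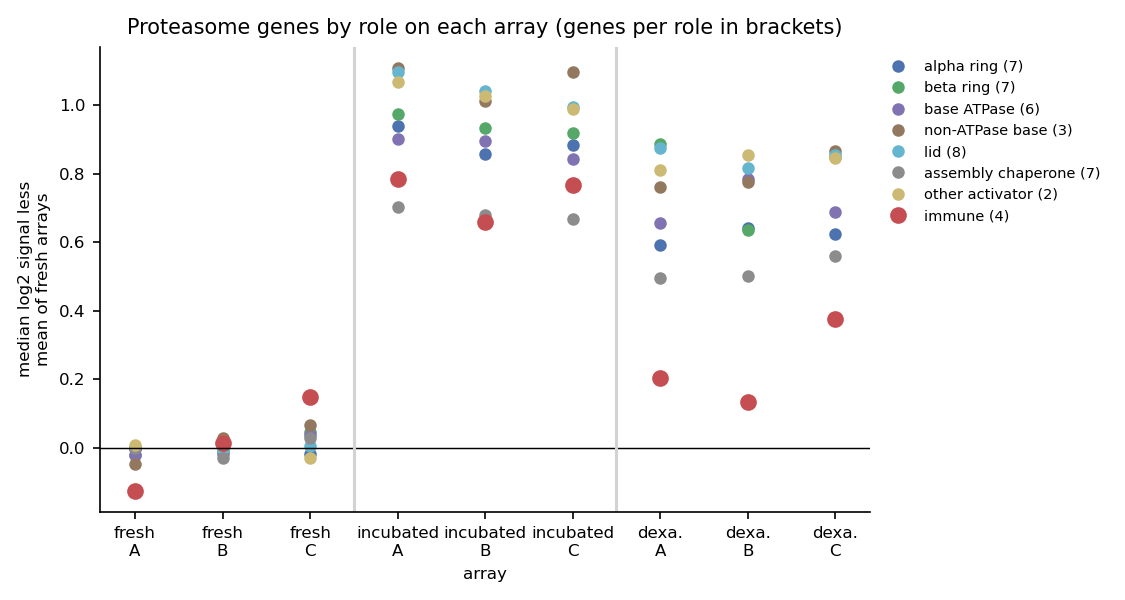
Median log2 signal of each role's tested genes on each array, less the mean of the fresh arrays (vertical axis), for the 9 arrays (horizontal axis), with 1 point per role and array. The median of the 4 immune genes (large red points) reached 0.66 to 0.78 on incubated arrays and 0.13 to 0.37 on dexamethasone arrays, where it was the lowest role on all 3.

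Per array, the median of the 40 constitutive genes lay 0.90 to 0.93 above fresh on incubated arrays and 0.67 to 0.71 above fresh with dexamethasone, while that of the 4 immune genes lay 0.66 to 0.78 and 0.13 to 0.37 above it. Against fresh tissue itself, which shares its arrays with the first comparison, dexamethasone-treated tissue had 41 proteasome genes higher and 1 lower (Psmb9), against 35.4% of all genes higher and 42.7% lower. The other 2, Psmd4 and Psmg1, did not pass. Psmd4 was called without fresh array B (0.31) and with the mean of all its tested probe sets (0.39). Psmg1 was called without fresh array C (0.17), after quantile normalization (0.17) and after centring arrays on their medians (0.18). It was also called with a pseudocount of 1, with a floor of 400 and when probe sets of each gene were averaged (0.14 each). Psmb9 was lower by 0.61 ± 0.12 on the log2 scale, at least 1.1-fold by the floor. Psmb8 stayed higher by 0.84 ± 0.12, a change that differed from that of Psmb5 by -0.036 ± 0.13 (exact permutation p = 0.80), and by 0.23 after quantile normalization. Psmb10 (0.29 ± 0.12, limma adjusted p = 0.0411) and Psme1 (0.19 ± 0.062, limma adjusted p = 0.0159) were nearer to fresh, and the arrays of Psmb10 overlapped. Psmb10 was not called without fresh array A (0.15), dexamethasone array A (0.31), dexamethasone array C (0.19) or incubated array C (0.29), nor Psme1 without fresh array A (0.13) or dexamethasone array C (0.15). Neither was called with hybridization-control scaling (0.22 for Psmb10 and 0.11 for Psme1), under which 37 genes were higher and 1 lower. Psmb10 was not called either with no filter, with eBayes without the trend or with both compared groups fitted alone. Psmd8 was the highest of the 44, by 1.83 ± 0.055 or 3.56-fold.

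For 18 of these genes 23 other probe sets were tested. On incubation 21 moved in the direction of the chosen probe set and none was called in the other direction. With dexamethasone 13 moved the same way, and 5, of Psma1, Psma3, Psma6, Psmc4 and Psme4, were called in the opposite direction. In 1 gene, Psma1, both were called: the chosen probe set fell by 0.38 and a dim one rose by 0.59. A dim probe set of Psma3 rose by 0.75. A dim probe set of Psme4 rose by 0.61, while a brighter one changed by -0.24 (limma adjusted p = 0.00569). The opposed probe sets of Psma6 (-0.13 ± 0.048) and Psmc4 (-0.16 ± 0.052) were not dim, with incubated means of 6137 and 3670. Against fresh, a dim probe set of Psmb1 was called lower (-0.34) where the chosen one was higher.

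Genes that work beside the proteasome were listed by role. Their counts stand beside the 36.1% higher and 40.7% lower of all genes on incubation, and the 22.3% higher and 28.7% lower with dexamethasone. Of 12 partners tested, 8 rose, 3 fell and 1 did not pass on incubation, with a median of 0.48, and with dexamethasone 1 rose and 3 fell (0 and 11 with hybridization-control scaling). Pomp, the maturation factor of the core, read 2626, 2538 and 2326 fresh and 4179.6, 4111 and 4497 incubated, a rise of 0.76 ± 0.058, and with dexamethasone it read 3986, 3696 and 3944 and did not pass (limma adjusted p = 0.0652). Usp14, a deubiquitinase of the regulatory particle, rose on incubation (1.19 ± 0.10) and again with dexamethasone (0.26 ± 0.10), a sign that turned to -0.15 with hybridization-control scaling. Zfand2a, which binds the proteasome under stress, rose on incubation (1.07 ± 0.045), as did the redox protein Txnl1 (0.57 ± 0.045).

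Of 12 genes that make ubiquitin chains or deliver tagged proteins, 8 rose and 1 fell on incubation (median 0.43), and with dexamethasone 3 rose and 5 fell (0 and 10 with hybridization-control scaling), against 22.3% and 28.7% of all genes. The shuttle Rad23b read 734.8, 768.3 and 683.2 fresh, 2073, 2135 and 1826 incubated and 1255, 1426 and 1381 with dexamethasone, with changes of 1.42 ± 0.075 and -0.56 ± 0.075. The autophagy receptor Sqstm1 rose in both comparisons (0.63 ± 0.043 and 0.24 ± 0.043), the second of which turned to -0.18 with that scaling. The conjugating enzyme Ube2n rose (0.92 ± 0.073) and then fell (-0.28 ± 0.073), and Ube2k rose on incubation (0.53 ± 0.046).

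Nfe2l1 encodes NRF1, the factor known for raising proteasome genes when the proteasome is impaired. Its probe set read 1368, 1546 and 1523 fresh, 1999.6, 1681 and 1721 incubated and 1817, 1747 and 1698 with dexamethasone, a rise of 0.28 ± 0.072 on incubation (limma adjusted p = 0.00386) and a change of -0.033 ± 0.072 with dexamethasone that did not pass. Nfe2l2, which encodes the related NRF2, rose by 0.22 ± 0.055 and with dexamethasone changed by -0.34 ± 0.055. Of the 9 genes of this list, which also holds partners and processing enzymes of NRF1, 6 rose and 1 fell on incubation, and 4 rose and 2 fell with dexamethasone (1 and 5 with hybridization-control scaling). Maff, a small MAF partner, read 37.6, 21.8 and 29.1 fresh, under the floor, then 1473, 1351 and 1307 incubated and 2447, 2464 and 2743 with dexamethasone, and Mafg rose by 0.88 ± 0.071 and 0.47 ± 0.071, the second of which was not called with that scaling (0.062). Ngly1, the glycanase that NRF1 needs, did not pass on incubation (0.073 ± 0.057) and fell with dexamethasone (-0.55 ± 0.057). Sel1l, a part of the ER export machinery, fell on incubation and rose with dexamethasone, with -0.49 ± 0.042 and 0.33 ± 0.042, the latter turning to -0.086 with that scaling.

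Of the 10 listed genes that load peptides on MHC class I, 6 rose and 3 fell on incubation (median 0.56), and with dexamethasone 5 fell and 0 rose in limma (median -0.14, with 1 higher at an unadjusted p of 0.05, and 10 lower with hybridization-control scaling). H2-K1 and H2-D1, the class I heavy chains, rose by 1.22 ± 0.053 and 1.08 ± 0.049 and then fell (-0.19 ± 0.053 and -0.40 ± 0.049). Tapbp, the bridge of the loading complex, rose by 0.93 ± 0.051 and then fell (-0.34 ± 0.051), while the light chain B2m rose (0.77 ± 0.048) and did not pass with dexamethasone (0.076 ± 0.048, with -0.080 after quantile normalization and -0.35 with hybridization-control scaling). Tap1, the neighbour of Psmb9 and Psmb8 that pumps peptides into the ER, read 270.7, 266.0 and 323.8 fresh, 380.5, 387.5 and 356.8 incubated and 292.8, 341.0 and 272.0 with dexamethasone, changes of 0.36 ± 0.11 and -0.29 ± 0.11 (limma adjusted p = 0.00915 and 0.0381). Among the neighbouring genes of the MHC, Psmb8 rose by 1.73 and Tap1 by 0.36 on incubation. Psmb9 and Tap2 (0.14 ± 0.11, limma adjusted p = 0.268) were not called.

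Of 13 genes of interferon signalling on the array, 8 were tested, and 4 rose and 2 fell on incubation. With dexamethasone 2 rose and 2 fell (0 and 5 with hybridization-control scaling). For 8 genes, the shares of all genes come close to these counts, which are not read as a result on the list. Irf1, a transcription factor known for driving immunoproteasome genes, read 568.0, 591.0 and 449.2 fresh, 1022, 1039 and 1149 incubated and 1113, 941.1 and 1000.0 with dexamethasone. It rose on incubation (0.96 ± 0.10, limma adjusted p = 1.6e-06) and its incubated and dexamethasone arrays overlapped (-0.071 ± 0.10, limma adjusted p = 0.572). Jak1 (0.67 ± 0.056) and Irf9 (0.63 ± 0.077) also rose on incubation, and the repressor Irf2 fell (-0.71 ± 0.12) and then rose (0.43 ± 0.12), a rise not called with that scaling (0.050). Ifng itself read at most 18.6 on any array. Nlrc5, an activator of class I genes, was listed between 26.3 and 63.0, under the floor.

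Markers of immune cells, which are known for high immunoproteasome levels, also changed. The summed signal of the 14 of 15 listed markers on the array was 19849 to 21130 in fresh, 10190.4 to 10543 in incubated and 7743 to 8294.5 in dexamethasone arrays. Most of that fall lay in S100a8 (means of 6578 fresh, 1592 incubated and 63.5 with dexamethasone) and S100a9 (5708, 817.2 and 16.8). Of 11 tested, 5 rose and 5 fell on incubation, against 36.1% and 40.7% of all genes. With dexamethasone 3 rose and 5 fell (1 and 8 with hybridization-control scaling), against 22.3% and 28.7%. These counts are not read as a result on the list. Ptprc, the pan-leukocyte surface gene, read 821.9, 929.6 and 730.7 fresh, 359.6, 418.2 and 349.6 incubated and 173.2, 191.4 and 179.0 with dexamethasone, changes of -1.07 ± 0.10 and -0.93 ± 0.10. S100a8 and S100a9 of neutrophils fell in both comparisons, Cd68 rose on incubation (3.38 ± 0.090), and Laptm5, a leukocyte gene, fell (-1.70 ± 0.085) and then rose (0.65 ± 0.085). The macrophage markers Adgre1 and Csf1r, named after their values were seen, moved in opposite directions. Adgre1 rose (1.37 ± 0.10) and then fell (-0.88 ± 0.10), while Csf1r fell (-1.11 ± 0.064) and then rose (0.44 ± 0.064, not called with that scaling at 0.024). The lymphocyte markers Cd3e and Cd79a were under 200 on every array. The 8 epithelial markers summed to 37568 to 39065 in fresh, 71976 to 73662 in incubated and 81860 to 85846 in dexamethasone arrays. On incubation 6 rose, including Cldn4 (3.17 ± 0.046), Krt8 (2.16 ± 0.053), Krt18 (1.72 ± 0.054) and Krt19 (1.26 ± 0.051), and 2 fell, Otx2 (-0.88 ± 0.046) and Scnn1a (-1.08 ± 0.063). With dexamethasone 6 rose and 2 fell, which turned to 1 and 4 with hybridization-control scaling. The part of these marker changes, and of the loss of adjoining-cell markers, in the proteasome results was not tested.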

How the data were processed

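RNA of fresh, incubated and dexamethasone-treated membranes was measured on 9 Affymetrix arrays, with groups taken from the sample labels. The deposited values are array signals on a linear intensity scale, with 1 value for a probe set, brought by the authors to a target of 500 (normalization factor 1), per the labels. Which software made them is not given in the sources used here. No background correction or scaling was added to the main values.

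Signals were tested as log2(signal + 32) with limma 3.58.1 in R 4.3.3 (lmFit, eBayes with an intensity trend), 1 mean for each group, for the 18913 probe sets with a signal of 200 or more on at least 3 of 9 arrays. P-values were adjusted by Benjamini-Hochberg over all tested probe sets of a comparison. Values after ± are SEs. The procedure was also run on simulated data with few changed probe sets, unlike the data here, and no result is drawn from that run. Tables and figures used Python 3.11.15 with pandas 2.3.3, NumPy 2.4.6, SciPy 1.17.1 and matplotlib 3.10.9.

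Of 45101 probe sets, 64 are controls, 34945 carry 1 gene symbol, 932 several and 9160 none in the platform annotation, and 204 gene IDs were not matched in the RefSeq list. Psma6, Psmc2, Psmd11, Psme4 and Psmc3ip were represented by probe sets whose names mark possible cross-hybridization (_s_at or _x_at).

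The members and lists were chosen with earlier results of these data known. Genes named were the immune subunits and their counterparts, the 4 largest called changes in each direction, the highest and lowest of each role, members under 200, members with an opposed probe set, and from each list 4 genes ranked by their lower adjusted p of the 2 main comparisons, with Nfe2l1, Nfe2l2, Pomp, Irf1, Tap1, Nlrc5 and Ptprc. Of the genes always named, 1 more is not reported here. Immune pairs were compared with two-sided exact permutation tests over arrays. Alternatives covered scaling, pseudocount, filter, variance model, arrays in the fit, replicate letter, choice of probe set and each array left out.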

Additional observations from a re-analysis of the deposited data

How the results depend on the processing

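The falls of Psmb8, Psmb9, Psmb10 and Psme1 with dexamethasone were called under every alternative that tested them, while Psmb9 was not tested with a floor of 400. Among counts of genes, quantile normalization, no filter and eBayes without the trend each left 3 genes rising with dexamethasone, against 5, and hybridization-control scaling left 0 rising and 42 falling. Without a filter 1 gene fell on incubation and 2 against fresh, as Psmb11 was tested only then. With a floor of 400, 0 fell against fresh in limma, as Psmb9 was not tested. Leaving out each array in turn gave 43 rising and 0 falling on incubation, 3 to 5 rising and 23 to 29 falling with dexamethasone, and 39 to 41 rising and 1 falling against fresh. Whether the letters A to C pair the arrays is not known. Same-letter correlations of deviations from group means were -0.062 to 0.16, against -0.16 to 0.15 for arrays of different letters. With 3 arrays a group these values cannot decide it. The replicate block gave 43 and 0, 5 and 26, and 41 and 1 genes, with no call changed among 141 gene results. Hybridization-control scaling (per-array factors 0.92 to 0.97 fresh, 1.18 to 1.22 incubated and 0.87 to 0.92 with dexamethasone) reversed the dexamethasone change of Psma6 (-0.34), Psmb2 (-0.27), Psmc4 (-0.34), Psmd1 (-0.094), Psmd7 (-0.082), Psmd8 (-0.26), Psmd11 (-0.19), Psmd14 (-0.26), Psmg2 (-0.38), Psmg3 (-0.27) and Psmg4 (-0.28), and on incubation that of Psme3ip1 (0.22). These shifts follow from the factors, and the negative values of Psmd1 and Psmd7 were not called. The mean of all probe sets reversed Psma1 (0.11), Psma3 (0.35) and Psmb4 (0.038), and leaving out _s_at and _x_at probe sets reversed Psma6 (-0.13), since other probe sets then entered. For the pairs, quantile normalization gave 0.91 and, against fresh, 0.23 for Psmb8 less Psmb5, -0.33 and -0.96 for Psmb9 less Psmb6 (the latter no measured gap, since Psmb9 was under the floor with dexamethasone), -0.88 and -0.96 for Psme1 less Psme3, and -0.47 and -0.34 for Psme2/Psme2b less Psme3. A pseudocount of 100 gave 0.41 on incubation for Psmb8, -0.65 and -0.77 for Psme1, and -0.27 and -0.16 for Psme2/Psme2b. A pseudocount of 1 gave -0.81 for Psme1 and -0.40 for Psme2/Psme2b on incubation. The cause of the changes in pairs was not tested. Signals near the floor, chiefly Psmb8 in fresh tissue and Psmb9, limit what can be read from those genes.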
